A study of Rattus norvegicus with 24 samples.

Results

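The carboxylesterase genes Ces1c and Ces1d were followed in primary rat hepatocytes kept between 2 collagen gels (sandwich) or on a single gel (monolayer). They are 2 of the 14217 genes that could be read on the array, and are covered by 3 of the 31042 probe sets tested, 2 for Ces1c and 1 for Ces1d. The members are the probe sets whose only platform symbol is Ces1c or Ces1d, and a gene was read by its probe set with the highest mean over all 24 arrays. The pair was chosen on its log2 levels in these same arrays, where Ces1c was lost in both cultures, so the levels of the 2 genes are given as a description and without a test.

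The series compared the sandwich with the monolayer at days 1, 2, 3 and 8, counted from the laying of the upper gel 24 h after seeding, with 3 arrays for each culture and day. The labels call the sandwich the positive control, as the stable culture, and the monolayer the negative control. All cells were isolated hepatocytes in DMEM with 10% serum, epidermal growth factor at 20 ng/mL, hydrocortisone at 7.5 µg/mL, insulin and glucagon, so every group had these factors. The sources used here give no strain, sex or age of the rats, and give no origin for the 3 replicates of a group, be it separate animals, isolations or wells, so the p-values measure the spread between arrays, which may be technical.

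Carboxylesterases are serine hydrolases that cut ester and amide bonds. In liver the Ces1 enzymes sit mostly in the lumen of the endoplasmic reticulum, where they break down ester drugs and pyrethroids and act on triglyceride and cholesteryl esters, while Ces2 enzymes prefer small acyl and large alcohol groups. In the mouse, Ces1c is the secreted plasma carboxylesterase, and Ces1d, also called triacylglycerol hydrolase, mobilises stored triglyceride for the assembly of very low density lipoprotein.

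The rat reference annotation lists 23 carboxylesterase genes and pseudogenes, 19 on chromosome 19 and 4 on chromosome 1, and 5 of them could be read on the array by a single symbol: Ces1c, Ces1d, Ces1e, Ces2c and Ces5a. Ces1e, Ces1d and Ces1c follow each other in a row of Ces1 genes on chromosome 19, with Ces1f on one side and Ces1a on the other, and Ces2c lies on chromosome 1. Genes of such a row resemble each other closely, and whether a probe set also takes signal from a neighbour was not tested, since the probe sequences were not used here. There was 1 further probe set with a Ces1 symbol beside other symbols, which was left out, and such probe sets of other carboxylesterases were not counted.

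The promoter windows of the 3 neighbouring Ces1 genes are shown because Ces1c, Ces1d and Ces1e all stood lower at day 8, and that of Ces2c because it moved the other way. Each window holds the 250 bases before and 50 bases after the gene's start, from RefSeq on the build GRCr8, plus strand, where all 5 measured genes were matched. Capitals mark matches to the motifs named after the sequences.
Ces1c, chr19:30099197-30099496 (+): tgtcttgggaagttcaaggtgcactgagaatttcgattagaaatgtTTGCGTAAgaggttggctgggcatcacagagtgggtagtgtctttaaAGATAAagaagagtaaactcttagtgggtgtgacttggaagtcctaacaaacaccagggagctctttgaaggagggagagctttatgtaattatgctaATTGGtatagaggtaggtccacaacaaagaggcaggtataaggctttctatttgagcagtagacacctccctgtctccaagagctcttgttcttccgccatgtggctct
Ces1d, chr19:30046244-30046543 (+): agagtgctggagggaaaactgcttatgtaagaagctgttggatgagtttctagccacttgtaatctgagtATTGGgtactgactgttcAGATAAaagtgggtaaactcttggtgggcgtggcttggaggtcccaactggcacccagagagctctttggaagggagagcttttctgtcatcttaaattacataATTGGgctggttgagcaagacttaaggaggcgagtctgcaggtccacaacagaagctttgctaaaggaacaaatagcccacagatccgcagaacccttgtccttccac
Ces1e, chr19:30005923-30006222 (+): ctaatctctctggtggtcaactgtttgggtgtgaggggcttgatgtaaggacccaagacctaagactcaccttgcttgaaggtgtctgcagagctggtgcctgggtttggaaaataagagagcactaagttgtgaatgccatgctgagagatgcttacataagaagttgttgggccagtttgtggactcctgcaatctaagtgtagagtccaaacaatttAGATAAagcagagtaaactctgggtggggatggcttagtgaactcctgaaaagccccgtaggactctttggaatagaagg
Ces2c, chr1:270376951-270377250 (+): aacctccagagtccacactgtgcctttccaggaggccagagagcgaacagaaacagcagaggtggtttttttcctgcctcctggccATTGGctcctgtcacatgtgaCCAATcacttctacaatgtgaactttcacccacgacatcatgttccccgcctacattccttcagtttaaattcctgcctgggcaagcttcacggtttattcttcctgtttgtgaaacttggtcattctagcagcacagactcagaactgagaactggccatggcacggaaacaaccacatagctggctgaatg

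Of 33469 rat promoters of this length, 11.6% hold the GATA motif AGATAA on either strand. It begins 157 bases before the start in Ces1c, 162 bases before it in Ces1d and 30 bases before it in Ces1e, and is not in the Ces2c window. In each of these 3 windows the letters GTAAACTCT begin 12 bases after the first base of AGATAA. This run of 9 letters is the longest that the 3 windows share, was looked for after the sequences had been seen, and occurs in 0.233% of all promoters. The CCAAT box (CCAAT, in 37.5% of promoters) stands on the reverse strand 59 bases before the start in Ces1c and 58 and 180 bases before it in Ces1d, and in Ces2c 164 bases before it on the reverse strand and 143 bases on the forward strand. A C/EBP motif, TTNCGNAA, is in 2.5% of promoters and begins 204 bases before the start of Ces1c, with no match in the other 3 windows. No match overlapped another, and the shared run begins with the same 6 letters as the forkhead motif GTAAACA. The TATA box TATAAA, that forkhead motif, the nuclear receptor half-site AGGTCA and the HNF1 half-site GTTAAT, in 14.2%, 3.78%, 16.2% and 7.45% of promoters, had no match in these 4 windows. Over their alignment the Ces1c and Ces1d windows were identical at 59.3% of columns, Ces1c and Ces1e at 53.6% and Ces1d and Ces1e at 49.3%. With Ces2c the identity was 46.5% for Ces1c, 46.9% for Ces1d and 50.7% for Ces1e. The windows were aligned end to end and are set by the annotated starts. AGATAA and the shared run lie at unlike distances from these starts, AGATAA at 162 bases in Ces1d and 30 in Ces1e. The identities of Ces1e therefore do not rank how alike its promoter is to the others, and a shifted alignment was not made. These matches describe letters and are not binding data.

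Ces1c stood high at day 1 and was lower at each later day in both cultures, ending near the median of all probe sets. In sandwich cultures its log2 level was 11.27, 11.22 and 11.17 at day 1, 9.54, 9.48 and 9.59 at day 2, 7.90, 8.15 and 7.81 at day 3, and 5.79, 5.87 and 6.28 at day 8. In monolayer cultures it was 11.08, 11.14 and 11.21 at day 1, 9.68, 9.76 and 9.67 at day 2, 8.29, 8.22 and 8.27 at day 3, and 6.01, 6.42 and 6.15 at day 8. The 3 arrays of each day lay below the 3 of the day before, without overlap, in either culture. Of all genes, 0.928% were lower in this way at each later day in sandwich cultures and 1.84% in monolayer cultures. The median of all probe sets over all arrays was 5.62, so the day 8 arrays lay just above it.

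The group means show how the loss was spread over the days. Sandwich cultures averaged 11.22 ± 0.05, 9.54 ± 0.05, 7.95 ± 0.18 and 5.98 ± 0.26 at days 1, 2, 3 and 8, and monolayer cultures 11.14 ± 0.07, 9.70 ± 0.05, 8.26 ± 0.035 and 6.19 ± 0.21 (log2 level, SD, n = 3 each). In sandwich cultures the level was lower by 3.21-fold at day 2 than at day 1 and by 3.00-fold at day 3 than at day 2, and in monolayer cultures by 2.71-fold and 2.72-fold. Between days 3 and 8 the log2 difference was -1.97 in sandwich and -2.07 in monolayer, which spread over the 5 days is -0.39 and -0.41 per day. Per day, the difference was thus larger over the first 3 days than after them.

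Day 8 against day 1, Ces1c was 37.7-fold lower in sandwich cultures, at -5.24 ± 0.11 (log2 difference, SE of the model), and 30.9-fold lower in monolayer cultures, at -4.95 ± 0.11. Of all 14217 genes its difference was the most negative in sandwich cultures, and in monolayer cultures only that of Rup2, at -4.98, was more negative. These are the values the gene was chosen for, and nothing is tested with them. For scale, 42.2% of genes had day 8 and day 1 arrays that did not overlap in sandwich cultures, and 49.7% in monolayer cultures. Fewer cells that make a transcript and less transcript per cell cannot be told apart in such bulk samples.

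**Figure D1:**
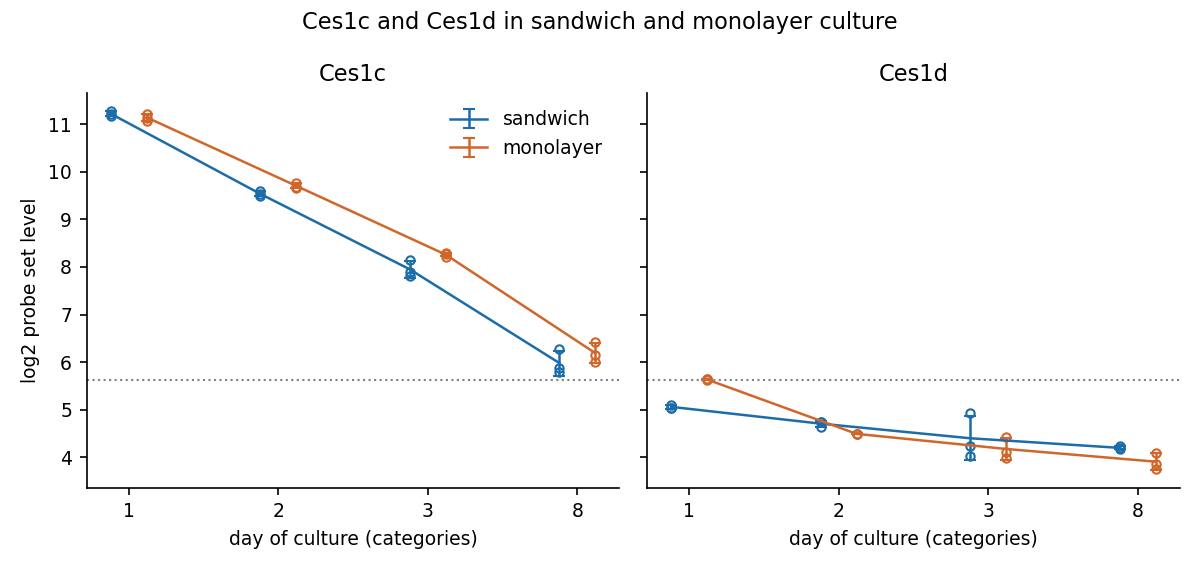
Log2 probe set level (vertical axis) of Ces1c, left, and Ces1d, right, at days 1, 2, 3 and 8, drawn as evenly spaced categories, in sandwich (blue) and monolayer (orange) cultures. Circles are arrays, lines join the means of 3 arrays, bars are SD, and the dotted line is the median of all probe sets, 5.62; Ces1c went down to that line in both cultures, while Ces1d lay at or below it throughout.

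Between the cultures the level of Ces1c differed by at most 0.31 on the log2 scale. Sandwich minus monolayer, the differences on days 1, 2, 3 and 8 were 0.077, -0.17, -0.31 and -0.21, each with an SE of 0.11. The 3 sandwich arrays lay below all 3 monolayer arrays at days 2 and 3, and the cultures overlapped at days 1 and 8. Arrays of the 2 cultures did not overlap for 21.1%, 24.4%, 37.0% and 45.9% of all genes on these days, so a separation of this kind was common. The day 8 minus day 1 differences of the 2 cultures, sandwich minus monolayer, were apart by -0.29 ± 0.16 (SE). The day 8 difference was -0.36 without sandwich day 8 replicate 3, -0.11 without replicate 1 of that group and -0.094 without monolayer day 8 replicate 2, and the difference of the changes was -0.44, -0.19 and -0.17 without these same arrays.

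Ordered from the top, the 8 groups ran sandwich day 1, monolayer day 1, monolayer day 2, sandwich day 2, monolayer day 3, sandwich day 3, monolayer day 8 and sandwich day 8. Neighbours in that order whose arrays overlapped were the pair at day 1 and the pair at day 8. Each later day therefore stood apart from each earlier one whatever the culture.

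The other, dimmer Ces1c probe set did not show this. Its readings lay between 3.18 and 3.73 on all 24 arrays, with group means between 3.33 and 3.58, far under the array's median. The 2 probe sets of the gene thus disagree, and the result rests on the brighter of them alone. With the mean of both in its place, the difference between day 8 and day 1 was -2.61 in sandwich cultures and -2.41 in monolayer cultures.

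Ces1d was also lower at day 8 than at day 1 in both cultures, with a signal near or under the array's median throughout. In sandwich cultures its probe set read 5.04, 5.10 and 5.04 at day 1, 4.74, 4.64 and 4.75 at day 2, 4.92, 4.24 and 4.04 at day 3, and 4.19, 4.17 and 4.24 at day 8. In monolayer cultures it read 5.63, 5.64 and 5.64 at day 1, 4.50, 4.48 and 4.50 at day 2, 4.44, 4.10 and 3.99 at day 3, and 3.87, 4.10 and 3.76 at day 8. Only the monolayer arrays of day 1 reached the median of all probe sets, and the table holds no detection calls, so the background under these readings is unknown and no fold is given.

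Most of the Ces1d difference in monolayer cultures arose between days 1 and 2. The group means were 5.06 ± 0.04, 4.71 ± 0.06, 4.40 ± 0.46 and 4.20 ± 0.03 in sandwich cultures at days 1, 2, 3 and 8, and 5.64 ± 0.0096, 4.49 ± 0.0093, 4.18 ± 0.23 and 3.91 ± 0.17 in monolayer cultures (SD, n = 3 each). The step between days 1 and 2 was -0.35 in sandwich cultures and -1.14 in monolayer cultures, and the arrays of the 2 days did not overlap in either, which held for 24.6% and 24.5% of all genes. Between days 3 and 8 the step was -0.20 in sandwich cultures and -0.27 in monolayer cultures, with overlapping arrays.

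Day 8 minus day 1, the log2 difference of Ces1d was -0.86 ± 0.15 in sandwich cultures and -1.73 ± 0.15 in monolayer cultures (SE), and the difference of the changes was 0.86 ± 0.21. Counted from the most negative difference, Ces1d was at place 359 of 14217 genes in sandwich cultures and at place 106 in monolayer cultures. The cultures changed order between days 1 and 2. Sandwich minus monolayer, Ces1d stood at -0.57, 0.21, 0.22 and 0.29 on days 1, 2, 3 and 8 (SE 0.15 each), and the arrays overlapped only at day 3. The day 3 difference was carried by sandwich day 3 replicate 1, which read 4.92, and was -0.037 without it. That array also had a high 3' minus 5' difference of beta-actin, at 1.16 against 0.975 and 0.958 for the other arrays of its group. Replicate 1 of sandwich days 1 and 8 was high in it too, at 1.09 and 1.21. Ces1d read 5.04 and 4.19 on these 2 arrays, close to the other arrays of their groups. A higher value of this measure stands for less intact RNA, and the part of RNA integrity in the reading was not tested.

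In the order of its 8 group means, monolayer day 1 stood above sandwich day 1, sandwich day 2 and monolayer day 2, each apart from its neighbour. From there on, sandwich day 3, sandwich day 8, monolayer day 3 and monolayer day 8 followed, and each overlapped with the next. Over the 24 arrays the levels of Ces1c and Ces1d went together with a Pearson correlation of 0.84 and a Spearman correlation of 0.82. The arrays share their 8 groups and their normalization, and both genes were picked for their course in time, so this is a description only.

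The other 3 measured carboxylesterases were not chosen for their values and could be tested with limma over all 31042 probe sets. They did not move together. A gene was called at a Benjamini-Hochberg adjusted p under 0.05, two-sided, and the 3 genes were not picked independently of the whole data set, since the family was chosen with earlier results known. In sandwich cultures 1 of 3 rose and 1 of 3 fell between days 1 and 8, where 31.7% of all genes were called, and in monolayer cultures likewise 1 rose and 1 fell, where 38.7% were called. Between the cultures, 0 of 3 differed at day 1 (2.57% of all genes called), and 1 of 3 at each of days 2, 3 and 8 (8.67%, 22.7% and 36.3% called). At an unadjusted p under 0.05, limma would call 1 of 3 at day 1, which is Ces2c.

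Ces2c, a carboxylesterase of the second family, went up while Ces1c went down. In sandwich cultures it read 8.67, 8.66 and 8.74 at day 1, 9.43, 9.42 and 9.39 at day 2, 9.78, 9.80 and 9.77 at day 3, and 10.92, 11.01 and 10.77 at day 8. In monolayer cultures it read 8.81, 8.92 and 8.88 at day 1, 9.35, 9.49 and 9.32 at day 2, 9.64, 9.67 and 9.77 at day 3, and 9.65, 9.73 and 9.57 at day 8. The means of the cultures ran close to each other up to day 3 and parted at day 8. All sandwich arrays lay below all monolayer arrays at day 1, and above them at days 3 and 8. Arrays of the cultures did not overlap for 21.1%, 37.0% and 45.9% of all genes on these 3 days.

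Between days 1 and 8 Ces2c rose 4.62-fold in sandwich cultures (2.21 ± 0.08, adjusted p = 1.58e-16) and 1.72-fold in monolayer cultures (0.78 ± 0.08, adjusted p = 1.60e-08). At day 8 it was 2.38-fold higher in sandwich than in monolayer cultures (1.25 ± 0.08, adjusted p = 3.92e-12), at 10.90 ± 0.12 against 9.65 ± 0.08 (SD, n = 3 each). The culture differences of -0.18 at day 1, 0.03 at day 2 and 0.09 at day 3 did not pass the test (adjusted p = 0.376, 0.939 and 0.560). The change from day 1 to day 8 itself differed between the cultures by 1.43 ± 0.11 (adjusted p = 7.73e-10), where 21.8% of all genes were called.

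Ces1e, known in the mouse as egasyn, which holds beta-glucuronidase in the endoplasmic reticulum, fell late in sandwich cultures and earlier in monolayer cultures. In sandwich cultures it read 6.19, 6.52 and 6.49 at day 1, 6.27, 6.69 and 6.64 at day 2, 6.53, 6.48 and 6.75 at day 3, and 5.54, 5.59 and 5.58 at day 8. In monolayer cultures it read 6.19, 6.26 and 6.29 at day 1, 5.87, 5.98 and 6.00 at day 2, 5.52, 5.86 and 5.51 at day 3, and 5.11, 5.61 and 5.59 at day 8. The sandwich arrays of days 2 and 3 stood above the monolayer arrays of the same day, and the cultures overlapped at days 1 and 8.

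Ces1e was 1.50-fold higher in sandwich than in monolayer cultures at day 2 (0.58 ± 0.13, adjusted p = 0.00551) and 1.95-fold higher at day 3 (0.96 ± 0.13, adjusted p = 4.65e-06). Its differences of 0.15 at day 1 and 0.13 at day 8 did not pass (adjusted p = 0.738 and 0.530). Between days 1 and 8 it fell by 0.83 ± 0.13 on the log2 scale in sandwich cultures and by 0.81 ± 0.13 in monolayer cultures (adjusted p = 2.11e-05 and 2.12e-05), to a level below the median of all probe sets. The difference of these changes was -0.02 ± 0.18 (adjusted p = 0.969). Ces5a, known in the cat as the urinary protein cauxin, read between 4.67 and 5.40 and passed in no comparison, with adjusted p between 0.310 and 0.940.

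**Figure D2:**
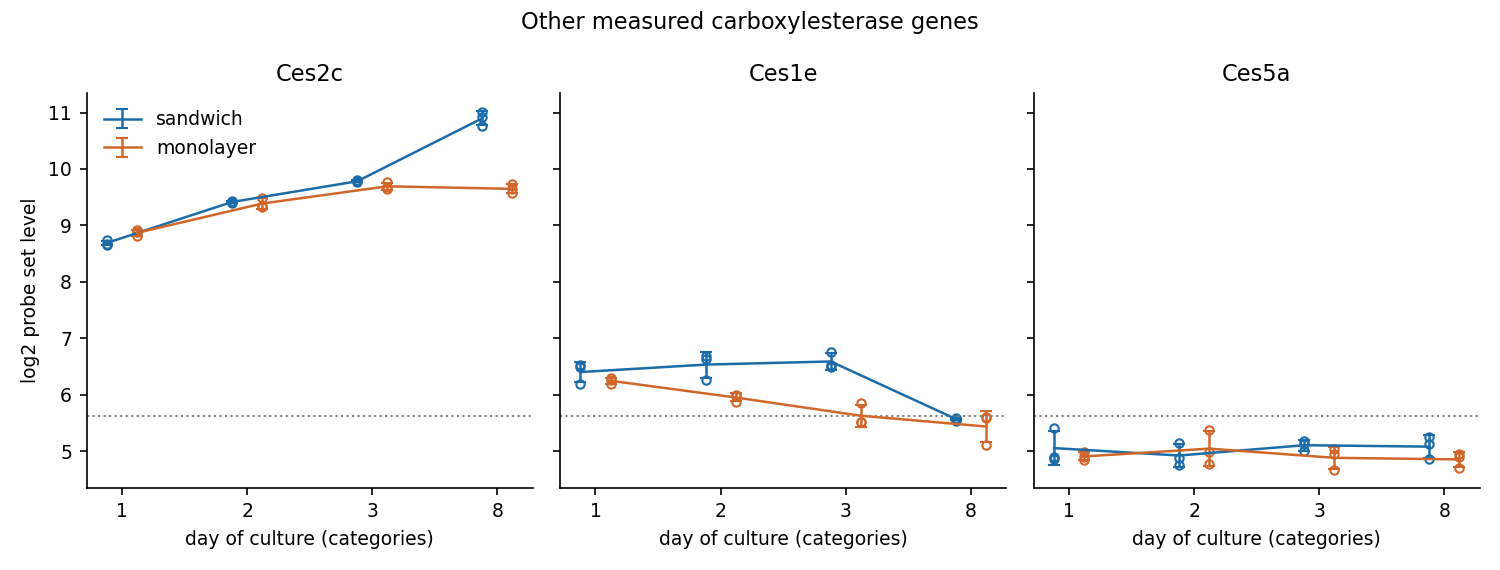
Log2 probe set level (vertical axis) of the 3 other measured carboxylesterases at days 1, 2, 3 and 8, drawn as evenly spaced categories, in sandwich (blue) and monolayer (orange) cultures. Circles are arrays, lines join the means of 3 arrays, bars are SD and the dotted line is the median of all probe sets, 5.62; Ces2c parts at day 8 with sandwich on top, Ces1e parts at days 2 and 3, and Ces5a stays below the line.

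**Figure D3:**
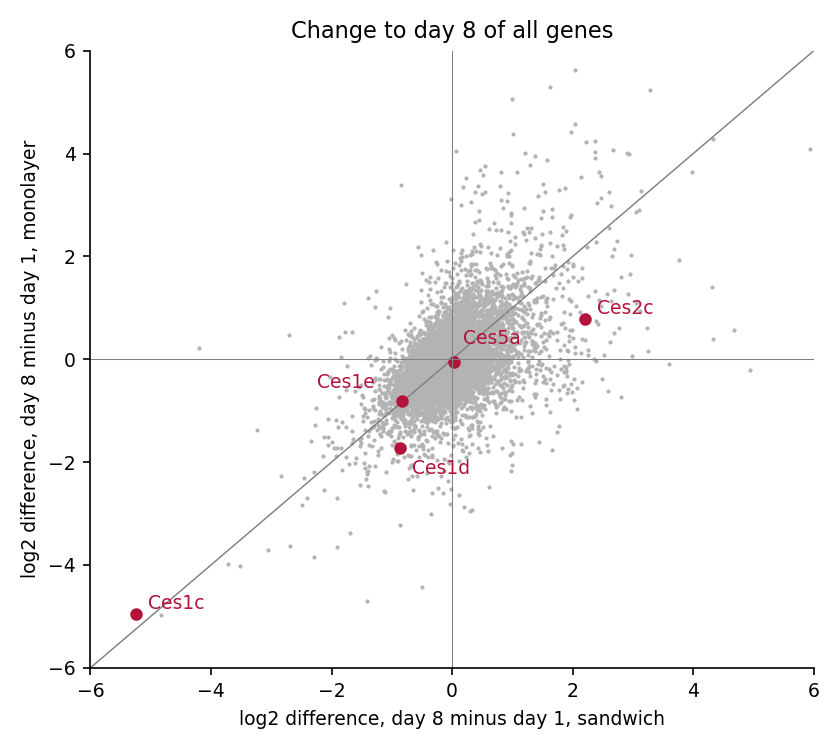
Log2 difference between day 8 and day 1 in sandwich (horizontal axis) and in monolayer cultures (vertical axis). Each grey point is 1 of 14217 genes, the diagonal marks equal differences, and the carboxylesterases are in red; Ces1c lies at -5.24 and -4.95 at the lower left end, Ces1d at -0.86 and -1.73, Ces1e at -0.83 and -0.81, Ces5a near 0, and Ces2c at 2.21 and 0.78 on the other side.

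Genes that ran most like Ces1c were sought among 1818 genes with a mean at or above the median and group means spanning at least 1 on the log2 scale. The 6 highest Pearson correlations over the 24 arrays belonged to Cxcl9, an interferon-induced chemokine, at 0.990, Serpina6, the corticosteroid-binding globulin of plasma, at 0.973, Bri3bp at 0.969, Tmem181 at 0.962, Cs, the citrate synthase of mitochondria, at 0.961 and B4galt1, a galactosyltransferase of the Golgi, at 0.960. Cxcl9 and Serpina6 had large differences too. Day 8 minus day 1, Cxcl9 stood at -3.71 in sandwich and -3.99 in monolayer cultures, and Serpina6 at -3.52 and -4.03. The other 4 lay between -1.70 and -0.90 in sandwich cultures and between -2.03 and -0.95 in monolayer cultures, so their likeness is one of shape, not of size. The choice of measure matters: 2 of these 6 were again among the first 6 over the 8 group means, and 1 of 6 by Spearman's correlation.

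**Figure D4:**
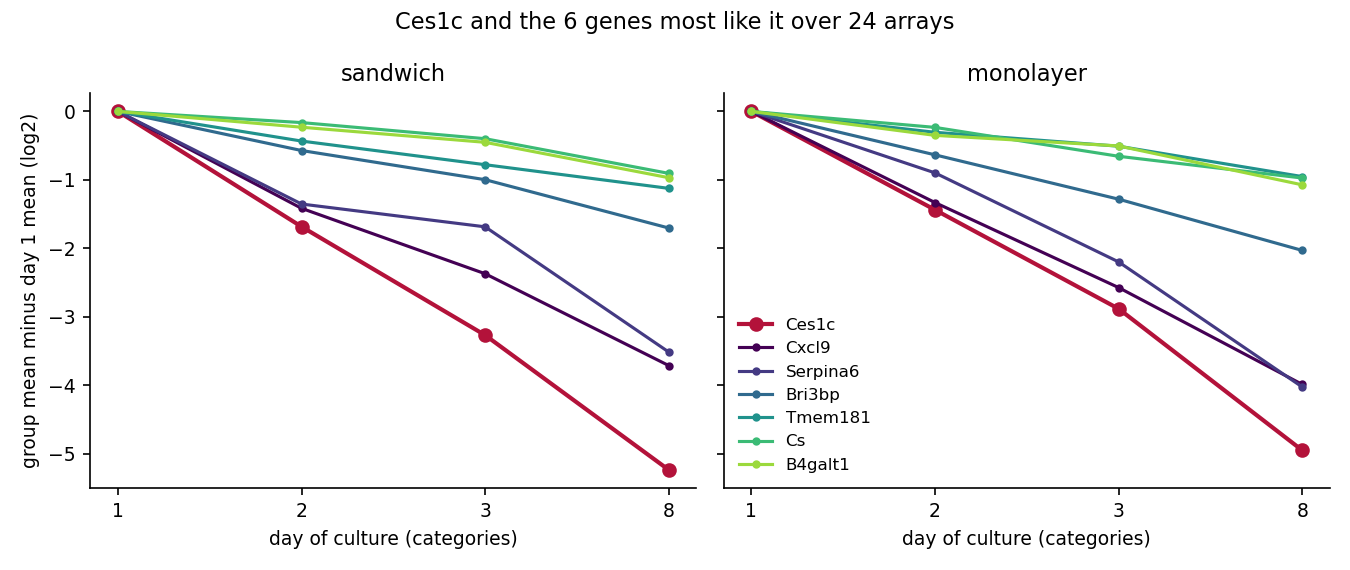
Group mean minus the day 1 mean of the same culture (log2, vertical axis) for Ces1c and the 6 genes most like it over 24 arrays, at days 1, 2, 3 and 8 drawn as evenly spaced categories, in sandwich (left) and monolayer (right). Each point is the mean of 3 arrays; Ces1c, in red, is lowest at every later day, Cxcl9 and Serpina6 follow it, and Tmem181, Cs and B4galt1 are at most 1.12 below their day 1 level.

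For Ces1d the 6 highest correlations, among 1819 genes, were lower. They belonged to Sfn, the 14-3-3 protein sigma, at 0.892, Gstm5, a glutathione transferase, at 0.892, Ugp2, which makes UDP-glucose for glycogen, at 0.883, Tuba4a, an alpha tubulin, at 0.882, Papola, a poly(A) polymerase, at 0.879 and Rup2 at 0.879. Of these, Sfn stood at -1.91 in sandwich and -2.70 in monolayer cultures, day 8 minus day 1, and Gstm5 at -0.35 and -1.36. Tuba4a stood at -0.79 and -0.97, Papola at -0.83 and -1.01, and Rup2 at -4.84 and -4.98. All of these differed more from day 1 in monolayer cultures, as Ces1d did, Sfn and Gstm5 by the widest margins. Ugp2, at -1.93 and -1.89, did not. By the 8 group means 1 of these 6 was again among the first 6, and by Spearman's correlation 0 of 6.

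The lipid and drug metabolism genes around the carboxylesterases were read from 5 lists. They too were drawn up with earlier results known, and each count below is to be read beside the share of all genes called in that comparison. Between the 2 cultures at day 8, 10 of 14 measured lipases, 10 of 15 lipid droplet proteins, 13 of 15 genes of lipoprotein assembly and triglyceride synthesis, 11 of 17 other hydrolases and 17 of 21 regulators were called, where the share over all genes was 36.3%. The day 8 comparison uses the same arrays as the day 8 against day 1 comparisons, so these results are not independent of each other. Hepatocyte markers moved with these lists: 8 of 13 were higher in sandwich than in monolayer cultures at day 8 and 0 lower by limma (9 and 0 at an unadjusted p under 0.05), and the change from day 1 differed for 6, all toward higher values in sandwich cultures, where 21.8% of all genes were called. Their part in the list results was not tested.

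Among triglyceride and ester lipases, 7 of 14 were higher and 3 lower in sandwich than in monolayer cultures at day 8. Their median log2 difference was 0.43 against 0.0030 over all genes. Pnpla2, the adipose triglyceride lipase, rose 3.50-fold from day 1 in sandwich cultures (1.81 ± 0.14, adjusted p = 2.34e-10) and 1.62-fold in monolayer cultures (0.70 ± 0.14, adjusted p = 2.88e-04). Its day 8 arrays read 10.23, 10.13 and 9.80 in sandwich cultures, against 8.98, 8.66 and 8.89 in monolayer cultures, with no overlap. The hepatic lipase Lipc went the other way. It rose 2.98-fold in monolayer cultures (1.58 ± 0.14, adjusted p = 1.38e-09) and stood at -0.01 in sandwich cultures, which left it 3.37-fold lower in sandwich than in monolayer cultures at day 8.

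Pnpla3, a lipid droplet lipase whose transcript follows feeding, fell 8.02-fold in monolayer cultures (adjusted p = 2.76e-13), against a difference of -0.36 in sandwich cultures that did not pass (adjusted p = 0.130) but did with only the groups compared (0.0273). Aadac, arylacetamide deacetylase, a microsomal esterase related to the lipases, rose by 0.53 ± 0.14 in sandwich cultures and fell by 0.77 ± 0.14 in monolayer cultures on the log2 scale. In sandwich cultures Aadac averaged 5.12, 5.84, 6.37 and 5.64 on days 1, 2, 3 and 8, so it stood highest at day 3. Its day 1 mean lay under the array's median in both cultures, and its monolayer means did so on every day. Its rise in sandwich cultures did not pass without sandwich day 8 replicate 2 (adjusted p = 0.0731). Abhd6, a monoacylglycerol lipase, and Nceh1, a cholesteryl ester hydrolase, rose in both cultures, by 1.41 and 0.68 in sandwich and by 0.69 and 1.17 in monolayer cultures. The change of Nceh1 was smaller in sandwich cultures by a difference of -0.49 ± 0.18 that did not pass (adjusted p = 0.0729), but did among brighter probe sets only (0.0475) and without monolayer day 8 replicate 1 (0.0255) or sandwich day 8 replicate 2 (0.0267). Pnpla8, a phospholipase, rose by 1.09 ± 0.08 in sandwich cultures and stood at 0.13 in monolayer cultures, which was 0.22 and passed under quantile normalization (adjusted p = 0.0289). In all, 8 of 14 lipases rose and 0 fell in sandwich cultures between days 1 and 8 by limma (8 and 2 at an unadjusted p under 0.05). In monolayer cultures 6 rose and 2 fell. Of all genes, 31.7% were called in sandwich and 38.7% in monolayer cultures.

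Lipid droplet proteins stood higher in sandwich cultures for 10 of 15 genes at day 8 and lower for 0 by limma (11 and 0 at an unadjusted p under 0.05), with a median of 0.53. Among those named here, G0s2, which restrains Pnpla2, differed most. It fell in both cultures, by 1.41 ± 0.12 on the log2 scale in sandwich cultures and by 4.70 ± 0.12 in monolayer cultures, and read 10.03, 10.08 and 10.12 in sandwich cultures at day 8, against 6.26, 6.28 and 5.85 in monolayer cultures. Hsd17b13 rose 3.70-fold in sandwich cultures, against a difference of -0.15 in monolayer cultures, which was -0.30 and passed without monolayer day 8 replicate 2 (adjusted p = 0.0359). Plin2, the coat protein of hepatocyte droplets, fell by 0.71 ± 0.09 in monolayer cultures, with -0.23 in sandwich cultures (adjusted p = 0.0592). The sandwich difference passed with arrays centred on their median (adjusted p = 0.0399), among brighter probe sets only (0.0306), with the replicate number as a block (0.0345) and without sandwich day 8 replicate 2 (0.0399). Bscl2, or seipin, fell in both, by 0.76 in sandwich and by 0.79 in monolayer cultures. Between days 1 and 8, 6 of 15 rose and 2 fell in sandwich cultures (31.7% of all genes called). In monolayer cultures 0 rose and 8 fell (0 and 10 at an unadjusted p under 0.05), where 38.7% of all genes were called. The 8 falls were 6 under quantile normalization and 10 with arrays centred on their median.

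Lipoprotein assembly and triglyceride synthesis, the process that Ces1d serves in the mouse, had the largest median culture difference of the 5 lists, 1.05 at day 8. By limma 13 of 15 genes were then higher in sandwich cultures and 0 lower, with the same counts at an unadjusted p under 0.05. Mttp, which loads lipid onto apolipoprotein B, rose 1.65-fold in sandwich cultures (adjusted p = 7.53e-04) and fell by 1.04 ± 0.15 on the log2 scale in monolayer cultures (adjusted p = 5.86e-06). At day 8 it averaged 10.53 ± 0.12 in sandwich cultures and 8.30 ± 0.30 in monolayer cultures (SD, n = 3 each). Apob, the apolipoprotein itself, rose in both, by 1.14 ± 0.11 in sandwich and by 0.38 ± 0.11 in monolayer cultures, and the monolayer rise did not pass without monolayer day 8 replicate 2 (adjusted p = 0.0608).

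Apoa4, an apolipoprotein of lipid-rich particles, was 8.19-fold higher in sandwich than in monolayer cultures at day 8 (3.03 ± 0.12, adjusted p = 4.94e-16). Lpin1, a phosphatidate phosphatase of triglyceride synthesis, was 7.42-fold higher (2.89 ± 0.12) and Tm6sf2, needed to lipidate lipoproteins, 2.86-fold higher (1.52 ± 0.08). Apobec1, which edits the Apob transcript, fell in both cultures, by 0.55 ± 0.13 in sandwich and by 1.90 ± 0.13 in monolayer cultures. Between days 1 and 8, 11 of the 15 rose and 3 fell in sandwich cultures (31.7% of all genes called). In monolayer cultures 1 rose and 11 fell (38.7% of all genes called). The change differed between the cultures for 13 of 15, all 13 toward higher values in sandwich cultures (21.8% of all genes called).

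Other drug and xenobiotic hydrolases were mixed, with 8 of 17 higher and 3 lower in sandwich cultures at day 8 and a median of -0.02. Centring the arrays on their median left 1 of the 3 lower. Pon1, the plasma paraoxonase made by the liver, fell by 1.70 ± 0.11 on the log2 scale in sandwich cultures and fell by 3.38 ± 0.11 in monolayer cultures. Its day 8 arrays read 8.91, 9.03 and 8.99 in sandwich cultures, against 7.62, 7.55 and 7.04 in monolayer cultures. The microsomal epoxide hydrolase Ephx1 fell in both, by 0.90 in sandwich and by 0.84 in monolayer cultures. Ephx2, the soluble epoxide hydrolase, and Cmbl, which activates ester prodrugs, rose in sandwich cultures by 0.62 and 0.75 and fell in monolayer cultures by 0.83 and 0.90.

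Gusb, the beta-glucuronidase that egasyn binds in the mouse, rose by 0.85 ± 0.07 in sandwich and by 0.86 ± 0.07 in monolayer cultures (adjusted p = 2.66e-09 and 1.48e-09), while Ces1e fell. Its culture difference at day 8, -0.22 ± 0.07, passed (adjusted p = 0.0271) but did not with arrays centred on their median (0.0732), with only the groups compared (0.129), or without monolayer day 8 replicate 2 (0.146) or sandwich day 8 replicate 1 (0.0642) or 3 (0.0872). From day 1 to day 8, 9 of the 17 hydrolases rose and 3 fell in sandwich cultures (31.7% of all genes called). In monolayer cultures 4 rose and 8 fell (38.7% of all genes called). Aadac and Nceh1 sit on this list and on that of the lipases.

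Regulators of liver drug metabolism genes were higher in sandwich cultures for 13 of 21 and lower for 4 at day 8, with a median of 0.54. Nr1i3, the constitutive androstane receptor, rose 2.13-fold in sandwich cultures (1.09 ± 0.19, adjusted p = 6.64e-05), with -0.32 in monolayer cultures (adjusted p = 0.222). At day 8 its arrays read 6.76, 7.21 and 6.19 in sandwich cultures, against 4.59, 5.07 and 5.13 in monolayer cultures. Nr1i2, the pregnane X receptor, rose by 0.86 ± 0.10 in sandwich cultures and by 0.28 ± 0.10 in monolayer cultures. The monolayer rise (adjusted p = 0.0302) did not pass with arrays centred on their median (0.108), with only the groups compared (0.0783), or without monolayer day 1 replicate 1 (0.0711) or 3 (0.126) or monolayer day 8 replicate 2 (0.132) or 3 (0.141). Por, which hands electrons to the cytochromes P450, rose by 1.11 ± 0.12 in sandwich cultures.

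Hnf4a, the nuclear receptor at the centre of the hepatocyte programme, stood at 0.0019 in sandwich and -0.07 in monolayer cultures, day 8 minus day 1, and neither passed (adjusted p = 0.994 and 0.667). Between the cultures at day 8, Hnf4a was higher in sandwich cultures, by 0.49 to 0.58 on the log2 scale when 1 array was left out. Cebpa, a C/EBP factor of mature hepatocytes, fell between days 1 and 8 in both cultures, by 0.90 ± 0.24 in sandwich and by 0.97 ± 0.24 in monolayer cultures (adjusted p = 0.00652 and 0.00261). Its culture difference at day 8, 0.53 ± 0.24, did not pass (adjusted p = 0.116) but did with the replicate number as a block (adjusted p = 2.53e-04) and without monolayer day 8 replicate 1 (0.0151). Stat5b, which carries the growth hormone signal, fell by 0.91 ± 0.14 in each culture. Ppara, a receptor for fatty acids, fell by 0.43 in sandwich and by 0.81 in monolayer cultures. The oxysterol receptor Nr1h3 and the bile acid receptor Nr1h4 fell in monolayer cultures, by 0.84 and 0.92, against 0.13 and -0.23 in sandwich cultures, which did not pass. Nfe2l2, a regulator of the oxidative stress response, fell by 0.33 in sandwich cultures and rose by 0.51 in monolayer cultures. In all, 7 of 21 regulators rose and 5 fell in sandwich cultures between days 1 and 8 (31.7% of all genes called). In monolayer cultures 4 rose and 11 fell (38.7% of all genes called). The counts of rises were 5 and 2 with arrays centred on their median.

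Fewer genes of each list differed between the cultures at day 1 than at day 8. At day 1, 0 of 14 lipases, 2 of 15 droplet proteins, 2 of 15 lipoprotein genes, 0 of 17 hydrolases and 2 of 21 regulators were called. The share of all genes called was likewise lower at day 1, at 2.57%, than at day 8, at 36.3%. The lipases and hydrolases would have had 2 and 4 calls at day 1 by limma at an unadjusted p under 0.05. By the same rule 4 droplet proteins would be higher and 2 lower in sandwich cultures, 2 and 1 lipoprotein genes, and 4 and 3 regulators. At day 3, 6 lipases, 5 droplet proteins, 13 lipoprotein genes, 7 hydrolases and 14 regulators were called, where 22.7% of all genes were. The lipoprotein genes then had as many calls as at day 8.

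**Figure D5:**
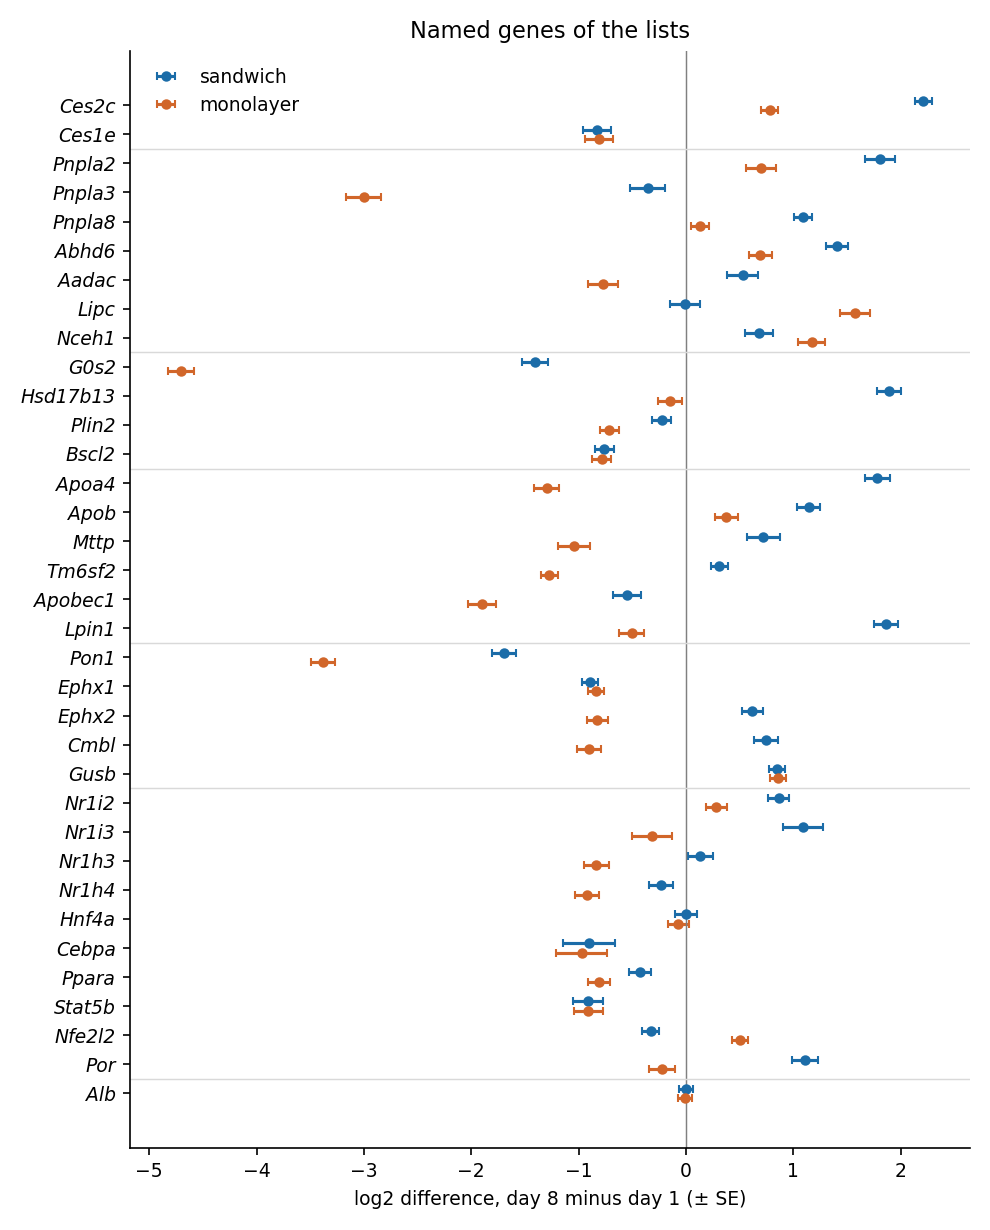
Log2 difference between day 8 and day 1 (horizontal axis, SE of the model as bars) in sandwich (blue) and monolayer (orange) cultures for named genes. Blocks from the top are Ces2c and Ces1e, lipases, lipid droplet proteins, lipoprotein assembly and triglyceride synthesis, other hydrolases, regulators, and albumin. Ces5a is not drawn, nor are Ces1c, Ces1d and the genes most like that pair. Sandwich points lie to the right of monolayer points for most genes of the lipid blocks, Lipc and Nceh1 being on the other side, while Ces1e, Bscl2, Ephx1, Gusb and Stat5b have nearly the same value in both.

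The labelled cell type was checked by its markers, which were high throughout. Of 14 hepatocyte markers 13 could be read, and all 13 lay above the median of all probe sets in every group, with array means of 12.31 to 12.61 in sandwich cultures and 11.40 to 12.20 in monolayer cultures. Alb, or albumin, read between 14.97 and 15.05 on all day 8 and day 1 arrays of both cultures, near the top of the table's range at 15.07, and its change did not pass in either (adjusted p = 0.994 in sandwich and 0.958 in monolayer). From day 1 to day 8, 5 hepatocyte markers rose and 4 fell in sandwich cultures, and 4 rose and 5 fell in monolayer cultures, where 31.7% and 38.7% of all genes were called. Of 9 measured endothelial markers 8 lay below the median in every group, as did at least 7 of 8 lymphocyte markers. Of 11 stellate cell and fibroblast markers, 5 rose and 0 fell between days 1 and 8 in each culture by limma, with the same counts at an unadjusted p under 0.05. The share of all genes called was 31.7% in sandwich and 38.7% in monolayer cultures. The stellate and fibroblast markers had array means of 5.53 to 5.82 at day 8 against 4.87 to 4.95 at day 1 in sandwich cultures, and of 5.66 to 5.72 against 4.75 to 4.93 in monolayer cultures. Of 6 measured cholangiocyte markers, 3 rose in sandwich and 4 in monolayer cultures, where again 31.7% and 38.7% of all genes were called. Their array means were 6.33 to 6.50 and 7.55 to 7.60 at day 8. Of 10 measured macrophage markers, 8 were higher in sandwich cultures at day 3 (22.7% of all genes called), the day with the largest Ces1e difference, and 0 at day 8 (2 at an unadjusted p under 0.05). The part of these cells in the carboxylesterase results was not tested.

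A measure of RNA integrity, in which a higher value stands for less intact RNA, also moved with the culture. The difference between the 3' and 5' control probe sets of beta-actin had group means of 0.94 to 1.03 in sandwich cultures and 0.79 to 0.86 in monolayer cultures. With this difference as a covariate, each call of Ces1e, Ces2c and Ces5a stayed on its side of the threshold. Arrays of 1 group correlated with each other at 0.993 to 0.997 over all probe sets, arrays of different groups at 0.958 to 0.995, and array medians ran from 5.57 to 5.67. By these correlations no array stood apart. In the beta-actin measure, replicate 1 of the sandwich groups read 1.09, 1.16 and 1.21 at days 1, 3 and 8, above the other arrays of all groups, which reached at most 0.975. The number of arrays, 3 a group, limits the precision of all values.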

How the data were processed

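RNA of 24 hepatocyte cultures was measured on Affymetrix arrays from biotin-labelled cRNA, per the labels. The authors deposited log2 probe set values, and the submitters' processing notes name RMA, which summarises and normalizes probe sets, and limma, with no role or version. Of 31099 probe sets 57 controls were left out. Of the 31042 tested, 20826 had 1 symbol, 436 several and 9780 none, and 0 symbols needed updating through the gene identifier. Values ran from 2.61 to 15.07 with 0 missing.

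Differences were tested on the values as deposited with limma 3.58.1 in R 4.3.3, 1 mean per group over all 24 arrays, with Benjamini-Hochberg adjustment over all probe sets at 0.05. SE is that of the model. A fold is given only where the lower mean reaches the median of all probe sets. The fit was checked on simulated data. Members and lists were chosen with earlier results of these data known. Named genes are every measured carboxylesterase, the 3 list members with the smallest adjusted p in each of the day 8 comparisons, 11 genes named whatever their values (Pnpla2, Aadac, Lipc, Mttp, Plin2, Pon1, Nr1i2, Nr1i3, Hnf4a, Cebpa and Alb), and for each member the 6 genes most like it. Marker lists were of hepatocytes, stellate cells and fibroblasts, macrophages, endothelial cells, cholangiocytes and lymphocytes. Alternatives were quantile normalization, centring, a replicate block, array weights, only the groups compared, brighter probe sets, a beta-actin covariate, all probe sets of a gene, and leaving out each array.

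The labels number replicates 1 to 3 without saying what they share. Deviations of same-numbered arrays correlated at -0.43 to 0.42, over 0.1 in 9 of 18 pairs, and in all 3 pairs only for sandwich against monolayer at day 8 (0.42, 0.12 and 0.25), where the block is therefore given beside the result it changes.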

Additional observations from a re-analysis of the deposited data

Results flagged for a closer look

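The change from day 1 to day 8 differed between the cultures for 25 of 36 named genes (those of the lists and those named whatever their values, without Ces1c, Ces1d and the genes most like them), by the limma test of that difference itself (sandwich change minus monolayer change, log2). It was positive for 23 and negative for 2. Of all genes, 21.8% were called in this comparison, and the named genes were partly picked for small p-values, so the count is a description.

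Among esterases and lipases the difference was 1.43 ± 0.11 (SE) for Ces2c (adjusted p = 7.73e-10), 1.11 for Pnpla2, 2.65 for Pnpla3, 0.96 for Pnpla8, 0.71 for Abhd6, 1.30 for Aadac and -1.58 ± 0.19 for Lipc (adjusted p = 1.30e-06). Among droplet proteins it was 3.29 ± 0.17 for G0s2 (adjusted p = 1.19e-12), 2.04 for Hsd17b13 and 0.49 ± 0.12 for Plin2 (adjusted p = 0.00592), the smallest of the 25. For lipoprotein assembly and triglyceride synthesis it was 3.08 for Apoa4, 2.37 for Lpin1, 1.76 for Mttp, 1.58 for Tm6sf2, 1.35 for Apobec1 and 0.77 for Apob. Among other hydrolases it was 1.69 for Pon1, 1.65 for Cmbl and 1.44 for Ephx2. For regulators it was 1.41 for Nr1i3, 1.33 for Por, 0.97 for Nr1h3, 0.69 for Nr1h4, 0.58 for Nr1i2 and -0.83 for Nfe2l2, the other negative value. The adjusted p of the genes given without one lay between those of G0s2 and Plin2.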

How the results depend on the processing

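No call of Ces1e, Ces2c or Ces5a changed under any alternative run, the replicate block and the arrays left out included, and the filter for brighter probe sets removes Ces5a and Ces1d. Array weights raised the probe sets called between the cultures to 933 at day 1 and 3688 at day 2, against 552 and 1809. Leaving out 1 array gave 322 to 465 at day 1. With the mean of both its probe sets Ces1c differed by -2.61 in sandwich and -2.41 in monolayer cultures, day 8 minus day 1. Leaving out 1 array, the Ces1c difference at day 8 between the cultures ran from -0.36 to -0.094, its sandwich difference between days 8 and 1 from -5.39 to -5.14, and its difference of changes from -0.44 to -0.17. That of Ces1d at day 3 ran from -0.037 to 0.41. The cause of these moves was not tested. With the replicate block, 793, 2261, 5898 and 9472 probe sets were called between the cultures on the 4 days, and the only named call it changed beside Cebpa was that of Plin2 in sandwich cultures between days 8 and 1 (-0.23, adjusted p = 0.0345). Of called probe sets 32.2% were higher in sandwich cultures at day 1 (43.4% after quantile normalization), and 48.8% were higher at day 8 than at day 1 in monolayer cultures (37.9% after centring). Signals under the median of all probe sets, as for Ces1d, have an unknown background, so their differences may understate the change.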
